A study of Mus musculus with 5 samples.

Results

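The AP-1 subunit genes Fos, Fosl2, Jun, Junb and Jund were followed in mouse bone marrow-derived macrophages through 21 h of LPS (lipopolysaccharide), an outer-membrane molecule of Gram-negative bacteria. The members were taken by name, as every probe annotated with exactly 1 of these 5 gene symbols. This gave 10 probes of 19828 on the array and 5 genes of 8637 measured, and all 10 probes had a value on all 5 arrays. The cells were grown out of C3H/ARC marrow in vitro with human colony stimulating factor 1 (CSF-1), on which the lineage depends. One sample was untreated (0 h), and 4 were given 10 µg per ml of LPS from S. minnesota for 0.5, 2, 7 or 21 h. The second channel of all arrays was a common reference, RNA from whole embryos of C57BL6/J mice at day 17.5. Each time was measured on 1 array, so no value has a replicate check or a p-value, and precision is limited by the number of arrays.

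AP-1 is a transcription factor made of 2 proteins joined through a leucine zipper. Fos-family proteins (Fos, Fosl2) bind DNA only with a partner, usually of the Jun family, whereas Jun, Junb and Jund can also pair with each other. Fos and Junb are classical immediate early genes, transcribed without new protein synthesis once MAP kinases switch on the factors bound to their promoters. Engagement of Toll-like receptor 4 by LPS activates these kinases in macrophages. Jun kinases act on the Jun protein itself, and Jund is known as the subunit with the steadiest expression.

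The start regions of 3 genes are shown because Fos and Junb stood highest after 0.5 h while the Jun probes did not move together. Each line gives the 250 bases before the annotated gene start from RefSeq (GRCm38.p6), 5′ to 3′ on the strand of the gene, with motif matches in capitals. All 5 genes matched the RefSeq table by symbol. Fos lies on the plus strand, Junb and Jun on the minus strand.
Fos, chr12:85473640-85473889: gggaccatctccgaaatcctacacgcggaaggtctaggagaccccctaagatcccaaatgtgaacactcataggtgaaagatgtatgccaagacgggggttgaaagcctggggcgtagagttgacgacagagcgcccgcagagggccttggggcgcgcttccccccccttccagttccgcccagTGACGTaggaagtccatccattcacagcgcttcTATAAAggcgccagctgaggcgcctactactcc
Junb, chr8:84978749-84978998: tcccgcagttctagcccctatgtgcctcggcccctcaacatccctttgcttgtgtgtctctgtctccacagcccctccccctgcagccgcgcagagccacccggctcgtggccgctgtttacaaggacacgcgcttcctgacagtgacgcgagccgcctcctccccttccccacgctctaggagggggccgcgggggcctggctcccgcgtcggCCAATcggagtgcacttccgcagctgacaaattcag
Jun, chr4:95052223-95052472: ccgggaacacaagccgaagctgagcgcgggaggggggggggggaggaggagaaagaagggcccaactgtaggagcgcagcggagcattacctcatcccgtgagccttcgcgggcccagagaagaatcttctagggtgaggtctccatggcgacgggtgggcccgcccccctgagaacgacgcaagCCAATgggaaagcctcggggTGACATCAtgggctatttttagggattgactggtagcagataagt

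The letters searched on both strands were TGACTCA (the classical AP-1 site), TGACGTCA (the cAMP response element), its core TGACGT, TGACATCA (an AP-1-like octamer), TATAAA and CCAAT, and the CArG box that serum response factor binds was searched by its pattern. TGACGT is contained in TGACGTCA. The Fos window held TGACGT from 66 to 61 bases before the start and TATAAA from 33 to 28 bases before it. The Junb window held CCAAT from 36 to 32 bases before the start. The Jun window held CCAAT from 65 to 61 and TGACATCA from 45 to 38 bases before the start. In the windows of Fosl2 and Jund none of these letters were found. Of 32851 RefSeq windows of the same length, 4.46% held TGACTCA, 1.55% TGACGTCA, 6.47% TGACGT, 2.93% TGACATCA, 12.4% TATAAA, 33.8% CCAAT and 1.47% a CArG box. A match says only that the letters are there, and a window without one says nothing of more distant sites.

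Levels below are log2 ratios of macrophage over embryo RNA, minus the median of that array over its probes, so 0 is the typical probe of that array. They rest on reading the deposited log ratios as base 10 and as macrophage over embryo. Neither is stated in the labels. In base 2 every log2 value would be 3.32 times smaller, and in the other direction higher and lower would exchange. The likely direction was read from marker genes. The 13 measured macrophage markers had median log2 ratios between 1.33 and 1.72 on the 5 arrays, and the 30 measured whole-embryo markers between -2.28 and -1.90. Not all macrophage markers were high. Above the array median lay 9, 11, 10, 10 and 10 of the 13 in order of time, and 0, 1, 1, 1 and 0 of the 30. Among other cell types, the medians of the 6 measured neutrophil markers ran from -0.34 to 0.52, of 3 B cell markers from 0.28 to 0.98, of 3 T and NK cell markers from -0.46 to 0.47, of 10 stroma markers from -2.41 to -1.24 and of 6 erythroid markers from -1.89 to -0.60. Their part in the values below was not tested. Fewer cells of a type and less RNA per cell cannot be told apart in such bulk samples.

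The arrays at 0.5 h and 2 h held an excess of high ratios that followed the probe number. When the probe numbers are divided into 207 runs of 96 consecutive numbers, 94 runs hold at least 10% of probes that exceed the 0 h array 2-fold at 0.5 h or at 2 h. These are called affected runs, a definition made after these data were seen. Of the 10 probes, 6 lie in affected runs, namely the single probes of Fos and Junb, 1 of 2 for Fosl2 and 3 of 4 for Jun. Both Jund probes lie outside them. Each member is therefore also set against its own run. As a technical measure of error, the SD of the log2 change over probes of one gene, pooled over 3015 genes with 2 or more probes, was 0.67, 0.97, 0.51 and 0.47 at 0.5, 2, 7 and 21 h. It includes differences between clones and no difference between cultures.

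**Figure D1:**
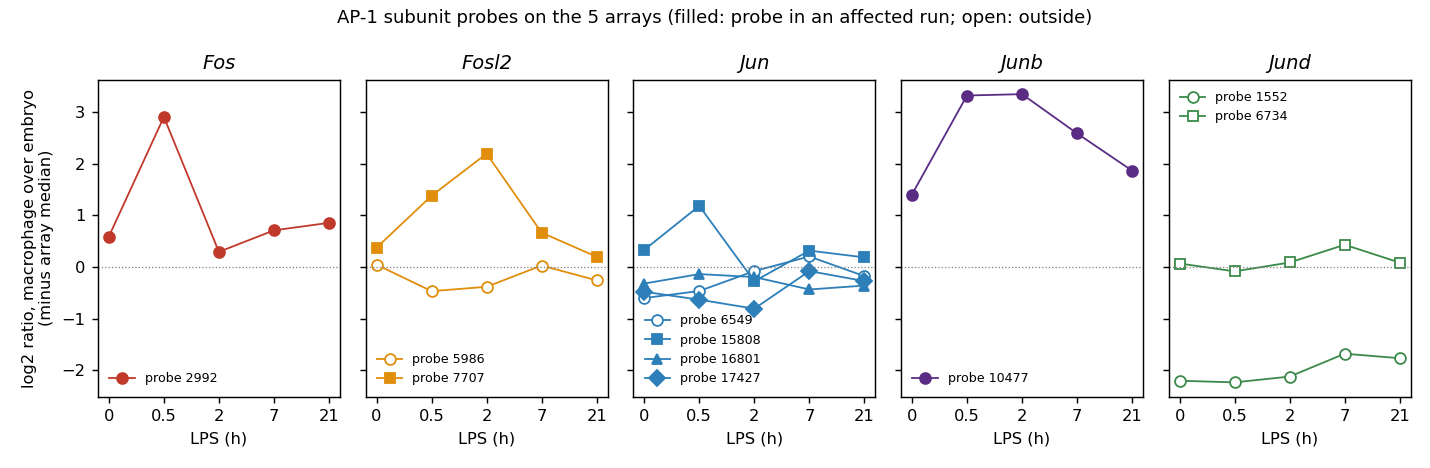
Log2 ratio of macrophage over embryo RNA (array median subtracted) of the 10 AP-1 subunit probes against hours of LPS, 1 array per time and 1 panel per gene. Filled points are probes in affected runs and open points probes outside them. Fos peaks at 2.90 at 0.5 h, Junb stays above 3 at 0.5 h and 2 h, and the Jund probes lie apart in level but move little.

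Fos and Junb were the members at least 2-fold above 0 h after 0.5 h, and they parted by 2 h, when Junb was still high and Fos was not. The Junb part of this depended on the scaling. Under quantile normalization its log2 change was 0.30 at 0.5 h and -0.29 at 2 h. After 0.5 h, 2 of the 5 genes were at least 2-fold higher, where 5.95% of all genes were, and 0 were at least 2-fold lower, where 1.01% of all genes were. After 2 h, 1 of 5 was higher (Junb), against 12.4% of all genes, and 0 lower, against 1.1%. After 7 h, 1 of 5 was higher (Junb again), against 4.08% of all genes, and 0 lower, against 3.16%. After 21 h, 0 of 5 were higher, against 3.05%, and 0 lower, against 1.45%. On the log2 scale the median change of the 5 genes was 0.25, 0.05, 0.27 and 0.23 in order of time, where that of all genes was 0.08, 0.07, -0.00029 and 0.02. With 5 members, the counts of 1 say little against these backgrounds. The single probes of Fos and Junb lie in affected runs, which are defined by high shares. Among probes of such runs, 15.4% had risen 2-fold or more by 0.5 h, against 1.53% outside them. By 2 h these shares were 27.1% and 4.38%. In the runs of Fos and Junb themselves the 0.5 h shares were 7.29% and 4.76%. The share of all genes mixes these backgrounds, so 5.95% alone is no close measure for the count of 2. Without centring, the median of all genes itself stood at -0.22 at 7 h and -0.12 at 21 h, so small late values are read relative to it. The 4 comparisons share the 0 h array, and a deviation of that array enters each of them.

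Fos, the founding member of the Fos family, spans chr12:85473890-85477274. Its single probe (number 2992) had log2 ratios of 0.59, 2.90, 0.29, 0.71 and 0.85 at 0, 0.5, 2, 7 and 21 h. The 0.5 h array stands alone in this series, and the values of the other 4 arrays lie close together. On a linear scale, with the array median taken out, the Fos ratio to embryo was 7.49 after 0.5 h, against 1.5 at 0 h. The difference is 4.98-fold, a log2 change of 2.32, or 3.44 times the pooled SD over probes, and 98.5% of all genes had a smaller change at 0.5 h. Between 0.5 h and 2 h the Fos level dropped by 2.61 on the log2 scale, where the pooled SD over probes for that step was 0.69. At 2, 7 and 21 h its log2 changes from 0 h were -0.30, 0.12 and 0.27, each smaller than the pooled SD. The order of the levels was 0.5 h, 21 h, 7 h, 0 h and 2 h, and among the last 4 no neighbours differed by more than the spread over probes.

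Fos's place in its run can be measured directly. At 0.5 h its change was the third highest of 96 probes in that run, whose median change was 0.06 and of which 7.29% were at least 2-fold higher, against 7.65% of the probes measured on all 5 arrays. The run counts as affected through the 2 h array, where 10.5% of its probes were at least 2-fold higher and Fos itself ranked 78 of 95. With each run centred on its own median, the log2 change of Fos at 0.5 h was 2.37. Under quantile normalization of the 5 arrays it was 1.53, still above 2-fold, and in base 2 it would be 0.70.

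Junb, which pairs with Fos-family proteins and can curb Jun activity, spans chr8:84976909-84978748. Its single probe (number 10477) had log2 ratios of 1.40, 3.32, 3.35, 2.59 and 1.86 at 0, 0.5, 2, 7 and 21 h. The level was highest on the 0.5 h and 2 h arrays, which are nearly equal, and lower on each later array. On a linear scale, with the array median taken out, the ratio to embryo was 9.98, 10.2, 6.0 and 3.64 at 0.5, 2, 7 and 21 h, and 2.64 at 0 h. The differences from 0 h were 3.78-fold, 3.85-fold, 2.27-fold and 1.38-fold, with log2 changes of 1.92, 1.94, 1.19 and 0.46. These equal 2.85, 2.01, 2.31 and 0.98 times the pooled SD over probes at each time. The share of all genes with a smaller change was 97.8%, 94.9%, 97.3% and 86.4%. Between neighbouring LPS times the level moved by 0.03 from 0.5 h to 2 h, where the pooled SD over probes was 0.69. It moved by -0.76 from 2 h to 7 h (SD 1.03) and by -0.72 from 7 h to 21 h (SD 0.40). Among these steps after 0.5 h, only the last exceeded the spread over probes.

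The early Junb values depended on the scaling. Within its run Junb had the second highest change both at 0.5 h (of 84 probes) and at 2 h (of 93). The run's median change was 0.23 and 0.05, and 4.76% and 10.8% of its probes were at least 2-fold higher, so it too is an affected run through the 2 h array. With each run centred, the log2 change of Junb was 1.71, 1.93, 0.92 and 0.31 at the 4 times. Quantile normalization gave 0.30 at 0.5 h and -0.29 at 2 h, a change of direction, but 1.17 at 7 h and 0.33 at 21 h. The 7 h change fell short of 2-fold with each run centred and, at 0.97, without any centring. Set against the 0.5 h array, Junb was lower by 0.73 on the log2 scale at 7 h and by 1.45 at 21 h.

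**Figure D2:**
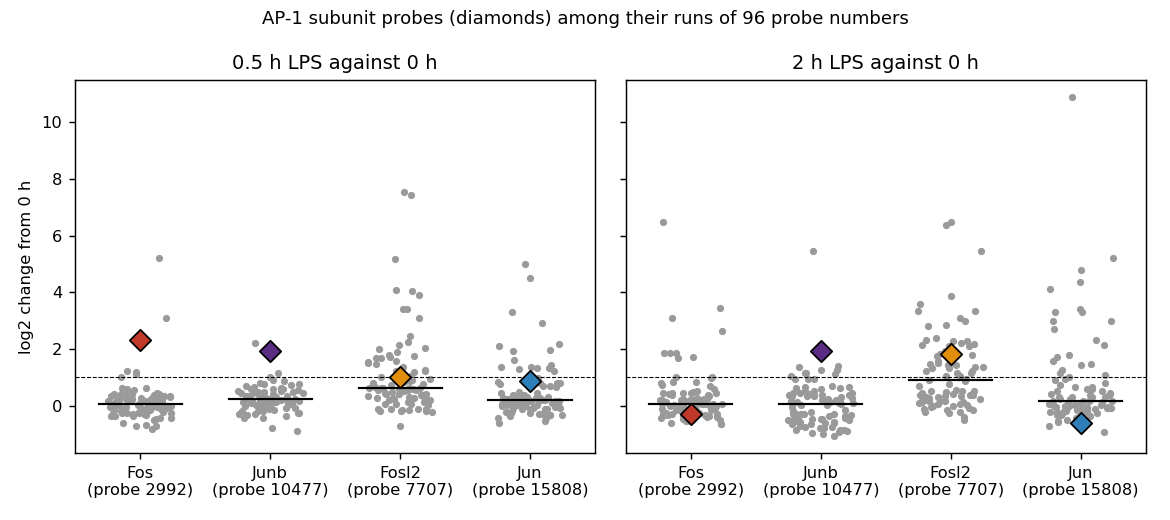
Log2 change from 0 h of each measured probe (grey points, spread sideways at random) in the runs of 96 probe numbers that hold the probes of Fos, Junb, Fosl2 (7707) and Jun (15808), at 0.5 h and 2 h. Diamonds are the named probes, bars the median of the run and the dashed line 2-fold. For Fosl2 and Jun the probe with the highest change at 0.5 h was picked, and their other probes are not drawn. Fos at 0.5 h and Junb at both times stand near the top of their runs, which are centred near 0, while the Fosl2 probe lies inside a run whose median is itself 0.62 and 0.91.

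Fosl2 (Fra-2), a Fos-family subunit that lacks the strong activation domain of Fos, spans chr5:32136472-32157840, and its 2 probes went apart. Probe 7707 had log2 ratios of 0.37, 1.38, 2.19, 0.66 and 0.20 at 0, 0.5, 2, 7 and 21 h, which peaks at 2 h. Probe 5986 had 0.04, -0.47, -0.39, 0.03 and -0.26, with the early arrays lowest. Probe 7707 was thus 2.01-fold higher at 0.5 h and 3.53-fold at 2 h, while probe 5986 had log2 changes of -0.51 and -0.43. Probe 7707 lies in a run where 36.7% of probes at 0.5 h and 48.3% at 2 h were at least 2-fold higher and where it ranked 33 of 90 and 22 of 87. Probe 5986 lies outside the affected runs. The gene means were 0.25, 0.70, 0.14 and -0.24 at 0.5, 2, 7 and 21 h, with an SD over the 2 probes of 1.07, 1.59, 0.22 and 0.09. At 0.5 h and 2 h the mean is smaller than its SD, so no direction is given for Fosl2. With each run centred the mean was 0.07 and 0.27.

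Jun, the partner that completes the classical Fos-Jun dimer, spans chr4:95049036-95052222 and was measured by 4 probes annotated to the same transcript. Their log2 changes at 0.5 h were 0.85 (probe 15808), 0.18 (16801), 0.14 (6549) and -0.15 (17427). At 2 h the same probes stood at -0.61, 0.13, 0.52 and -0.33, so the highest probe of 0.5 h was the lowest of 2 h. At 7 h they stood at -0.01, -0.11, 0.81 and 0.40, and at 21 h at -0.15, -0.04, 0.42 and 0.21. None of these 16 values reached 2-fold, and the 4 probes shared a sign at none of the 4 times. The gene means were 0.25, -0.07, 0.27 and 0.11, with an SD over probes of 0.43, 0.50, 0.42 and 0.26. Each mean was smaller than its SD. Probe 6549, the one outside the affected runs, was highest of the 4 at 2, 7 and 21 h, and its 1.75-fold value at 7 h was seventh of 95 in a run with a median of -0.11. Junos, a non-coding gene that starts on the opposite strand beyond the Jun start, had 1 probe with log2 changes of -0.38, -0.24, 0.23 and 0.38.

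Jund, on chr8:70697739-70700616, had 2 probes outside the affected runs that differed widely in level and little in change. Probe 1552 had log2 ratios of -2.20, -2.24, -2.12, -1.68 and -1.77 at 0, 0.5, 2, 7 and 21 h. Probe 6734 had 0.07, -0.09, 0.09, 0.43 and 0.08. Both were highest at 7 h and lowest at 0.5 h. The mean changes from 0 h were -0.09, 0.05, 0.44 and 0.23, with an SD over the 2 probes of 0.08, 0.04, 0.11 and 0.30. The 7 h value, 1.36-fold, exceeded the SD of these 2 probes but equals 0.86 times the pooled SD over probes of one gene, and 83.7% of all genes had a smaller change. It was 0.47 with each run centred, 0.51 under quantile normalization and 0.22 without centring. Jund lay within 0.10 of 0 h at 0.5 h, when Fos and Junb were at least 2-fold higher, and at 2 h, when only Junb was.

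**Figure D3:**
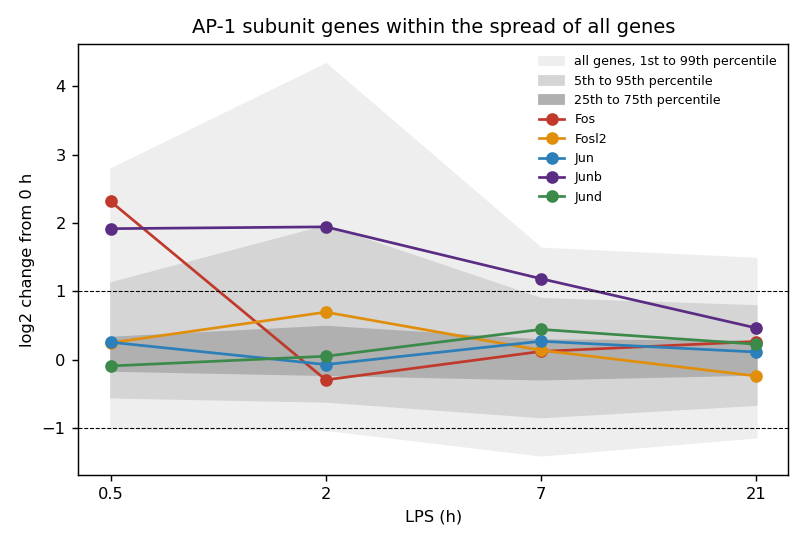
Log2 change from 0 h of the 5 genes (lines, means over probes) at 0.5, 2, 7 and 21 h of LPS, over bands that hold the middle of all 8637 genes; dashed lines mark 2-fold. Fos at 0.5 h and Junb at 0.5 h and 7 h lie above the 95th percentile of all genes, Junb at 2 h lies close to it, and the remaining values lie below it.

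By the Euclidean distance between the 4 log2 changes, the genes nearest to Fos were Fam183b (distance 0.70), the antiproliferative gene Btg2 (0.77) and Dipk1a (0.88). Those nearest to Junb were the translation factor gene Eif4h (0.40), Tinag (0.71) and the stress-response phosphatase regulator Ppp1r15a (0.80). Of these 6 genes, only Ppp1r15a had all its probes outside affected runs, and the log2 changes at the 4 times were 1.92, 1.94, 1.19 and 0.46 for Junb, against 2.14, 1.31, 0.76 and 0.41 for Ppp1r15a. Fos had log2 changes of 2.32, -0.30, 0.12 and 0.27, against 1.79, 0.22, 0.11 and 0.02 for Btg2, of whose 3 probes 2 lie in affected runs. Fosl2 was nearest to Mmadhc (0.09), Emp3 (0.12) and Eef1e1 (0.16), Jun to Vps4b (0.06), Ndufb3 (0.07) and Pank1 (0.08), and Jund to Ube2w (0.07), the invariant chain gene Cd74 (0.08) and Zfand3 (0.10). Profiles near 0 have many near neighbours, so the short distances of the last 3 carry little. All distances rest on the same 5 arrays.

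Among related leucine zipper genes, 21 of 39 listed were measured. Fosb and Fosl1, the other Fos-family genes, were not analysed here. At least 2-fold higher were 1, 3, 1 and 1 of the 21 genes at 0.5, 2, 7 and 21 h, where 5.95%, 12.4%, 4.08% and 3.05% of all genes were. Lower were 0, 0, 1 and 0, against 1.01%, 1.1%, 3.16% and 1.45% of all genes. The counts at 0.5 h and 2 h lie near those shares. The list median was 0.07, 0.15, 0.02 and 0.01, against 0.08, 0.07, -0.00029 and 0.02 for all genes. Crem, a cAMP-responsive modulator, had the highest mean change at 0.5 h and 2 h (1.57 and 1.95), but its 2 probes disagreed, with an SD of 2.84 and 2.72, and under quantile normalization the means were 0.81 and 0.65. Nfe2l2 (Nrf2), which drives antioxidant genes, was 3.34-fold higher at 2 h (log2 change 1.74, SD over 2 probes 0.63) but stood at -0.97 under quantile normalization, and its relative Nfe2l1 had 1.18, against 0.57 under quantile normalization. Atf3, a stress-induced partner of Jun proteins, stood at -1.0 at 2 h and 0.70 at 7 h on 1 probe in an affected run, and at -4.54 and -0.72 under quantile normalization. Mafk, a small Maf protein that pairs with Fos and Nrf proteins, was higher late, with 1.08 at 7 h (0.86 without centring) and 1.23 at 21 h, and Cebpg was lower at 7 h (-1.41). Jdp2, a repressor that pairs with Jun proteins, had 0.84 at 2 h.

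Of 19 measured kinases and factors upstream of Fos and Jun, 1, 2, 1 and 1 were at least 2-fold higher at 0.5, 2, 7 and 21 h, and 0, 0, 2 and 1 lower. The shares of all genes were 5.95%, 12.4%, 4.08% and 3.05% higher and 1.01%, 1.1%, 3.16% and 1.45% lower, so 1 or 2 of 19 say little. Map3k8, the kinase that links Toll-like receptors to the ERK pathway, had log2 changes of 1.32, 4.35, 0.35 and 0.40 on 1 probe in an affected run, and quantile normalization gave 0.36 at 0.5 h and 1.56 at 2 h. Map2k1 (MEK1), the kinase directly above ERK, stood at 0.72, 1.02, 1.34 and 1.42, with an SD over its 2 probes of 0.35, 0.83, 0.55 and 0.35, and at 2 h quantile normalization gave 0.58 and run centring 0.59. Mapk8 (JNK1), which phosphorylates Jun, stood at -0.32, 0.88, -1.11 and -1.39 on 1 probe in an affected run. With each run centred it stood at -0.96 at 0.5 h, -0.31 at 2 h, a change of direction, and -0.96 at 7 h, and quantile normalization gave -0.75 and -0.07 at 0.5 h and 2 h. Mef2c, a factor that binds the Jun promoter, stood at -1.02 at 7 h (SD over 2 probes 0.45) and at -0.98 under quantile normalization. Srf, which binds the Fos promoter, stood at -0.28 at 0.5 h and 0.51 at 2 h.

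Of 10 measured regulators of AP-1 protein, 0, 1, 0 and 0 were at least 2-fold higher at the 4 times and 0 lower at any of them. Of all genes, 5.95%, 12.4%, 4.08% and 3.05% were higher and 1.01%, 1.1%, 3.16% and 1.45% lower. The one at 2 h was Cops5 (Jab1), a coactivator of Jun, at 1.64 with an SD over its 2 probes of 2.37, both in affected runs, and at 0.59 under quantile normalization. Dusp6, a phosphatase that switches ERK off, stood at -0.96 at 2 h. Zfp36l1, which promotes decay of short-lived messenger RNAs, stood at 0.75 at 0.5 h. Of 18 measured genes with known AP-1 sites, 0, 3, 2 and 4 were at least 2-fold higher and 0, 0, 1 and 1 lower, with list medians of 0.20, 0.08, 0.20 and 0.06, of which the first 2 were -0.03 and -0.32 under quantile normalization. The shares of all genes were 5.95%, 12.4%, 4.08% and 3.05% higher and 1.01%, 1.1%, 3.16% and 1.45% lower. The medians of all genes were 0.08, 0.07, -0.00029 and 0.02, of which the first 2 were -0.02 and -0.04 under quantile normalization. At 2 h the higher ones were the urokinase receptor gene Plaur (1.85), the quinone reductase gene Nqo1 (1.19, SD over 2 probes 1.01) and the metallothionein gene Mt2 (1.03). All their probes lie in affected runs, and under quantile normalization Plaur stood at -0.39 and Nqo1 at 0.91. With each run centred Nqo1 stood at 0.96 and Mt2 at 0.98. At 21 h heme oxygenase 1 (Hmox1) had 2.24, the gelatinase gene Mmp9 had 1.86 and the ferritin gene Fth1 had 1.47 (SD over 4 probes 0.77). Ccnd1, encoding cyclin D1, was lower at both late times, with -2.29 at 7 h (SD over 3 probes 0.97) and -2.06 at 21 h (SD 0.68), the second -3.17 under quantile normalization.

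Of 21 other immediate early genes measured, 8, 5, 4 and 3 were at least 2-fold higher at 0.5, 2, 7 and 21 h, where 5.95%, 12.4%, 4.08% and 3.05% of all genes were. At least 2-fold lower were 0, 0, 0 and 1, against 1.01%, 1.1%, 3.16% and 1.45%. The early response genes Nr4a1 and Klf10 stood at -0.38 and -0.19 at 0.5 h. The list median was 0.39, 0.46, 0.17 and 0.12, against 0.08, 0.07, -0.00029 and 0.02 for all genes. Without the affected runs 13 genes were left, of which 3, 1, 2 and 1 were at least 2-fold higher, where 1.28%, 4.22%, 4.52% and 2.55% of all 5996 genes were, with medians of 0.26, -0.07, 0.16 and 0.13. With each run centred, 5 of 21 were at least 2-fold higher at 0.5 h, where 4.43% of all genes were, and under quantile normalization 3 of 21 were, with a list median of 0.39. At 2 h quantile normalization gave 3 higher, 1 lower and a median of 0.05. Under that scaling the median of all genes was -0.02 at 0.5 h and -0.04 at 2 h. The counts of all genes under it are given in the closing paragraph. The kinase gene Pim1 was 3.90-fold higher at 0.5 h (log2 change 1.96, SD over 4 probes 0.20) with log2 changes of 3.09, 2.72 and 1.55 at 2, 7 and 21 h. Its 4 probes all lie in affected runs, and quantile normalization gave 1.30 at 0.5 h and 1.42 at 2 h. Btg2 had 1.79 at 0.5 h (SD over 3 probes 0.13). Nfkbia, the inhibitor of NF-kappaB, had 1.35 on a probe outside the affected runs, against 0.78 under quantile normalization. Myc, a factor that promotes growth, stood at 1.29 at 0.5 h and at -1.66 at 21 h, and the first was 0.69 with each run centred and 0.73 under quantile normalization. Markers of B cells moved in the same direction as Fos, Junb and these genes at 0.5 h. Of 3 measured of 8 listed, 2, 1, 2 and 1 were at least 2-fold higher at the 4 times, with median log2 changes of 1.13, 0.82, 1.03 and 0.46. Cd79b, a subunit of the B cell receptor with 1 probe outside the affected runs, had 1.13, 2.05, 2.41 and 1.79. Cd79a, in an affected run, had 1.23 at 0.5 h. With each run centred Cd79a stood at 0.74 at 0.5 h and -0.48 at 2 h. Vpreb1 had 0.22 at 0.5 h. Of the 6 neutrophil and 3 T and NK cell markers measured, 0 were at least 2-fold higher at any time. Other lists had such members too: 2, 2, 3 and 3 of the 13 macrophage markers and 0, 1, 2 and 0 of the 6 erythroid markers. The part of B cells in the changes of Fos, Junb and the early genes was not tested.

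**Figure D4:**
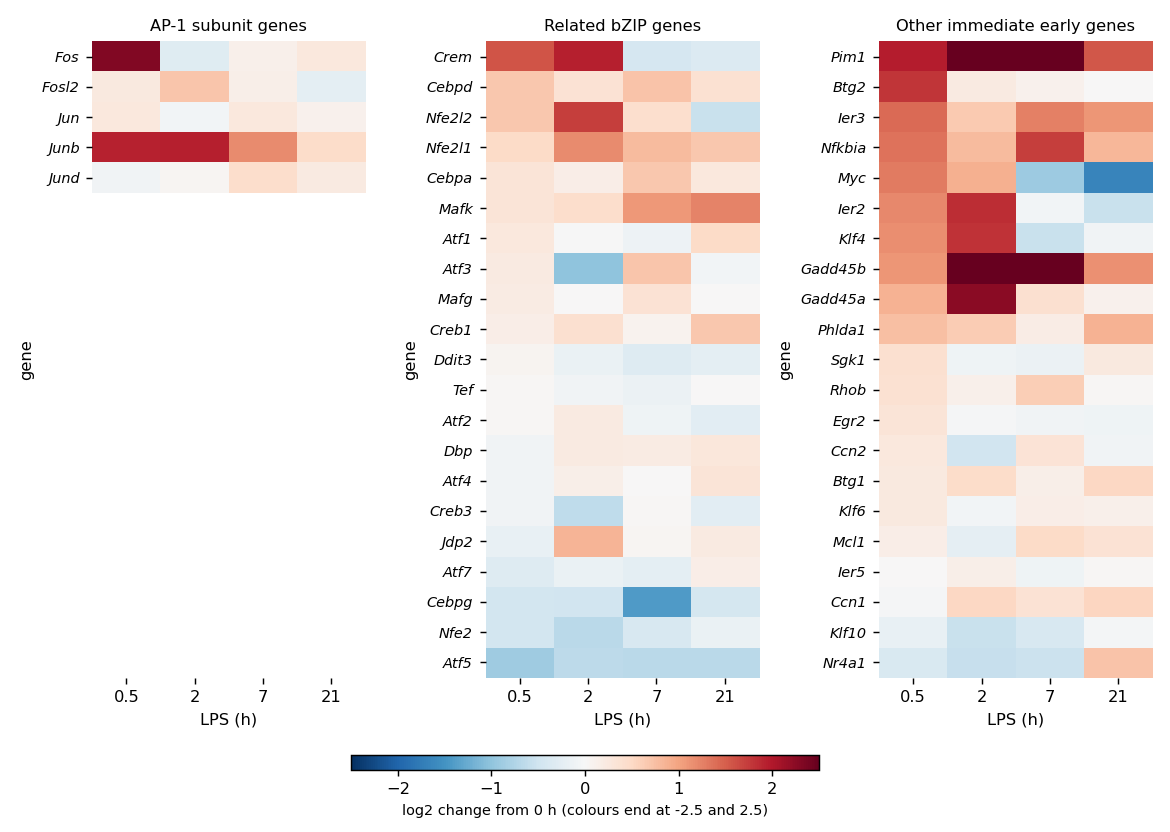
Log2 change from 0 h (colour, red higher and blue lower, ending at -2.5 and 2.5) at 0.5, 2, 7 and 21 h for the 5 AP-1 subunit genes, 21 related leucine zipper genes and 21 other immediate early genes, the last 2 groups sorted by the change at 0.5 h. Fos resembles Btg2 in being high at 0.5 h alone, and Junb, Pim1 and Gadd45b are high at 2 h. Under quantile normalization, which is not drawn, Junb stood at -0.29 at 2 h, Pim1 at 1.42 and Gadd45b at 1.56.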

How the data were processed

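The authors deposited 1 table of log ratios per probe for 5 two-colour cDNA arrays. Log base, direction, dye use and normalization are not given in the sources used here. The deposited values were read as log10 by assumption. They run from -2.62 to 4.09, a range that does not settle the base. Multiplication by 3.32 turned them into log2 values, from which the median of each array was subtracted, taken over the 18296 probes with a value on every array. Gene symbols came from the platform annotation of 2008, in which 14759 probes carry 1 symbol, 170 several, and 4899 are not listed. Entrez identifiers matched 14628 of the first to the gene table of GRCm38.p6. Probes of one symbol were averaged. With 1 array per time no test was run, and genes at least 2-fold from 0 h were counted.

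The members, gene lists and alternatives were chosen with earlier results of these data known. The text names all members and the 3 genes nearest to each member. It also names up to 4 genes of each list with the largest absolute change at a time, though not every such gene. Jdp2, Srf and Junos, and some values of list genes at further times, were added after they were seen. Nr4a1 and Klf10 were also named outside that rule. Alternatives covered centring, quantile normalization, runs of 96 probe numbers, baseline, log base, probe sets and the fold. The functions were tested on simulated data. Python 3.11.15, numpy 2.4.6, pandas 2.3.3 and matplotlib 3.10.9 were used.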

Additional observations from a re-analysis of the deposited data

How the results depend on the processing

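No paired analysis was possible because each time has 1 array and the labels carry no replicate numbers. Without replicates, a member's change was taken as kept where it moved by less than the pooled SD over probes, and a count where it stayed within 1.5 times. Of 179 recomputed member changes, 40 equalled the first value by construction and show nothing of stability: all 20 with probes measured on both arrays, 16 of 20 with the median over probes and the 4 of Jund without the affected runs. Of the other 139, 118 were kept, including all 20 without centring and all 20 with each run of 96 probe numbers centred. Many first values were smaller than the pooled SD, so the rule could hardly move them and says little of their stability. A turn of sign in such small values counted as kept. Without centring, Fos at 7 h went from 0.12 to -0.099, Fosl2 at 7 h from 0.14 to -0.082 and Jun at 21 h from 0.11 to -0.033. The causes of the moves below were not tested beyond what each alternative itself removes or rescales.

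Under quantile normalization the log2 change at 0.5 h was 1.53 for Fos and 0.30 for Junb, and Junb at 2 h turned to -0.29. In base 2, Fos at 0.5 h was 0.70 and Junb 0.58, 0.59 and 0.36 at 0.5, 2 and 7 h. Without the affected runs Fos and Junb have no probe, Fosl2 stood at -0.51 and -0.43 at 0.5 h and 2 h on probe 5986 alone, and Jun at 0.81 at 7 h on probe 6549 alone. Probe 7707 of Fosl2 alone gave 1.01 and 1.82. Against the 0.5 h array, Fos stood at -2.61, -2.20 and -2.05 at 2, 7 and 21 h, and Junb at 0.026, -0.73 and -1.45.

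Without the affected runs the counts below cover Fosl2, Jun and Jund only. Fos and Junb have no probe there, so a count of 0 says nothing of them. Outside those runs 1.28%, 4.22% and 4.52% of 5996 genes were at least 2-fold higher at 0.5, 2 and 7 h. The count of members at least 2-fold higher at 0.5 h was 1 under quantile normalization and 0 without the affected runs or in base 2. At 2 h it was 0 under quantile normalization, without the affected runs, in base 2 and against 0.5 h, and 2 at 1.5-fold. At 7 h it was 0 without centring, with each run centred, without the affected runs, in base 2 and against 0.5 h. Against 0.5 h, 1, 1 and 2 members were at least 2-fold lower at 2, 7 and 21 h.

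Of 89 measured list genes, 10, 14, 8 and 9 were at least 2-fold higher and 0, 0, 4 and 3 lower at 0.5, 2, 7 and 21 h. Higher were 3 and 5 at 0.5 h and 2 h under quantile normalization, 3, 4, 3 and 4 of 58 without the affected runs, 9, 2 and 4 against 0.5 h, 0, 1, 0 and 0 in base 2, and 18, 17 and 15 at 1.5-fold at 0.5, 7 and 21 h. Lower were 5, 7 and 9 at 0.5, 2 and 21 h under quantile normalization, 1 at 0.5 h with probes of both arrays, 3 at 2 h with each run centred, 5, 8 and 9 against 0.5 h, 0 and 0 at 7 h and 21 h in base 2, and 2, 7, 8 and 8 at 1.5-fold.

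Of all genes, 514, 1071, 352 and 263 were at least 2-fold higher and 87, 95, 273 and 125 lower. Higher were 240, 430, 417 and 324 under quantile normalization, 77, 253 and 153 of 5996 at 0.5, 2 and 21 h without the affected runs, 694, 235 and 195 against 0.5 h, 220 and 190 at 7 h and 21 h without centring, 56, 173, 7 and 8 in base 2, and 1098, 1887, 1000 and 788 at 1.5-fold. Lower were 298, 395, 516 and 391 under quantile normalization, 172 and 65 at 7 h and 21 h without the affected runs, 709 and 627 at 7 h and 21 h against 0.5 h, 510 and 222 at the same times without centring, 2, 2, 5 and 2 in base 2, and 378, 493, 930 and 560 at 1.5-fold. Signal over background was not analysed here, so dim probes could not be set apart.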
